A study of Mus musculus with 2 samples.

Results

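Cartpt, Tac1, Gal, Penk, Nmb and Vip encode the precursors of 6 neuropeptides, and they were followed by symbol among the 46984 features counted in single pancreatic endocrine cells of mice. They were chosen by their summed counts and shares of cells in these 2 libraries, so the direction and size of their differences are described here and carry no test. Each genotype was 1 library: cells sorted for the red reporter tdTomato and pooled from 3 mice aged 1 month. Isl1CKO mice carried 1 Neurod1 Cre allele and floxed alleles of Isl1 on both chromosomes. Control mice carried the same Cre allele with 1 floxed and 1 unfloxed Isl1 allele, so Cre and a floxed Isl1 allele are common to both genotypes. Isl1 encodes a homeodomain factor of the LIM class that islet endocrine cells express, and Neurod1-driven Cre acts in endocrine cells and in other Neurod1-expressing cells. Islets were dissociated in actinomycin D, which blocks new transcription. The source label gives female and male animals for Isl1CKO and males for control.

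Neuropeptides are made as precursors, packed into dense-core granules, cut by the prohormone convertases, trimmed by carboxypeptidase E and, for many of them, amidated by Pam before release. Their receptors are G protein-coupled. Islets receive nerves that carry several of these peptides, and CART and galanin are also known from islet endocrine cells of rodents. The Cartpt precursor gives the CART peptides, known from appetite circuits of the brain. Tac1 gives substance P and neurokinin A, the tachykinins of sensory and gut neurons and of some gut endocrine cells. Gal gives galanin, which inhibits insulin release. Penk gives the enkephalins, which act on opioid receptors. Nmb gives neuromedin B, a bombesin-like peptide, and Vip gives vasoactive intestinal peptide of gut and pancreatic nerves.

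On GRCm38, per GENCODE vM21, Cartpt lies on chromosome 13 (99898489 to 99901091, minus strand), Tac1 on chromosome 6 (7554879 to 7565834, plus strand) and Gal on chromosome 19 (3409915 to 3414544, minus strand). Penk lies on chromosome 4 (4133531 to 4138819, minus strand), Nmb on chromosome 7 (80902227 to 80905076, minus strand) and Vip on chromosome 10 (5639218 to 5647617, plus strand). Penk shares 499 bases with A830012C17Rik on the opposite strand, and Nmb shares 188 bases with Sec11a on its own strand. Whether the counting used strand is not given in the sources used here, so reads of these pairs may not be separable and the values of Penk and Nmb are uncertain.

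The cAMP response element, TGACGTCA, and its core, which reads TGACG or, from the other strand, CGTCA, were looked for because cAMP is a known inducer of neuropeptide genes. The core that many homeodomain factors bind, TAAT, read as ATTA from the other strand, was looked for because the deleted factor is one of them. The windows were the 250 bases before each RefSeq start on GRCm38.p6, and 5 of the 6 genes had an entry. GENCODE has transcripts of Cartpt and Tac1 that begin further upstream, so the Cartpt stretch and the Tac1 stretches printed here lie wholly or in part within the gene spans given above, and distances count from the RefSeq start. Both strands were read, and the core is contained in the full element. Cartpt was the only one of the 5 with the full element, at 112 to 105 bases before its start. Tac1 had the core at 197 to 193 and at 43 to 39 bases before its start, with TAATTA between them. In the Vip window the core stood at 79 to 75 bases, with TAAT at 123 to 120 and ATTA at 236 to 233. Gal and Nmb had none of these letters. The stretches below run 5′ to 3′ on the gene's strand, with the searched letters in capitals.
Cartpt, chr13:99900777-99900806, minus strand: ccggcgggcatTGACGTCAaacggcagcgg
Tac1, chr6:7554852-7554880, plus strand: tccctaaaattgCGTCAtttcgaacacaa
Tac1, chr6:7554949-7554978, plus strand: cgagggggcggcTAATTAaatattgagcag
Tac1, chr6:7555006-7555034, plus strand: gctctacaggctCGTCAcgcctgagataa
Vip, chr10:5639127-5639155, plus strand: ggatcactactgTGACGtctttcggggag
Among 32817 windows of this length, 1.55% held the full element, 17.7% its core and 54.9% the TAAT core. These matches describe the letters only.

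Depth came to 86086781 UMIs in Isl1CKO and 48685758 in control, where a UMI (unique molecular identifier) stands for a captured transcript. After filters on UMIs, genes and mitochondrial share, and without clusters of low UMI count or with exocrine, immune or stromal markers, 7522 Isl1CKO and 3864 control endocrine cells remained. The median depth was 8502 UMIs in Isl1CKO cells and 8903 in control cells. They shared 7 cell barcodes. Both libraries carried islet hormone transcripts, with Gcg at 1041 CPM (counts per 1000000 UMIs after TMM scaling between libraries) in Isl1CKO and 211810 in control. Isl1 transcripts were counted at 294 CPM in Isl1CKO and 364 CPM in control; the sources used here do not say which exons are floxed, and 3′ tags outside a deleted part do not check the deletion. Of cells whose X- and Y-linked transcripts gave a sex, female cells made up 76.4% of 6540 in Isl1CKO and 35.9% of 2497 in control, although the control library is labelled as males. Since each genotype is 1 library, the differences have no replicate check, and every interval is a 95% interval that covers counting error only.

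Cartpt had the largest ratio of the 6 over all endocrine cells. It had 13728 UMIs in Isl1CKO and 138 in control, which is 152 CPM (149.7 to 154.8) in Isl1CKO and 4.21 CPM (3.54 to 4.98) in control. The log2 ratio of Isl1CKO over control was 5.17 (4.93 to 5.43), a 36.1-fold difference. Per cell this was 1.83 UMIs in Isl1CKO and 0.0357 UMIs in control.

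Tac1 was also higher in Isl1CKO cells. It had 706 UMIs there and 30 in control, or 7.83 CPM (7.26 to 8.43) in Isl1CKO and 0.916 CPM (0.618 to 1.31) in control. The log2 ratio was 3.10 (2.57 to 3.67), an 8.54-fold difference. Of the control UMIs, 76.7% came from 92 cells described further on, and without that cluster in either library the log2 ratio was 5.04.

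A feature was called at a 2-fold difference with an interval excluding no difference, among the 10324 features that reached 5 CPM in at least 1 library. By that rule 6.9% of all features were called higher in Isl1CKO and 6.1% lower. Of the 6 precursors only Cartpt and Tac1 reached 5 CPM, and both were called higher. Both passed that limit only through Isl1CKO, where they were high, so these calls were largely fixed by the limit and the choice of members. Tac1 was the member just inside the limit, and Nmb, at 2.27 CPM, just outside it. With no limit on low values, 4 of the 6 were called higher and 1 lower, where 7.69% of 24178 features were called higher and 7.97% lower.

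**Figure D1:**
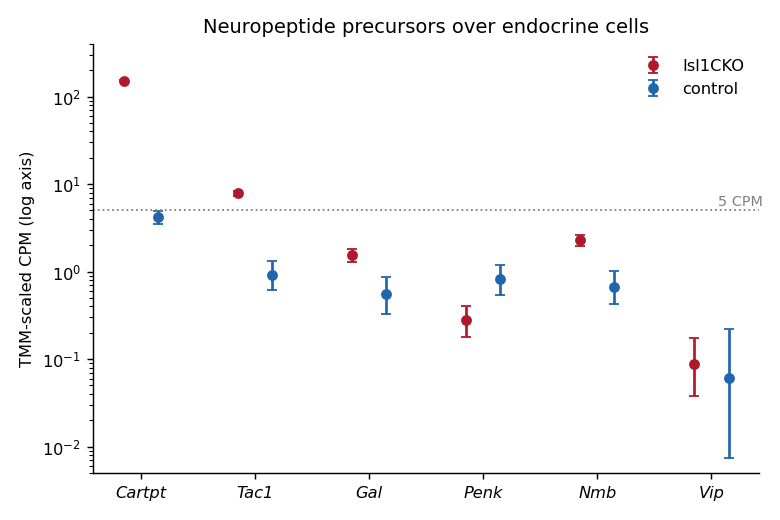
TMM-scaled CPM (log axis) of the 6 precursor genes over endocrine cells, with Isl1CKO (7522 cells, red) left of control (3864 cells, blue); points are 1 library each and bars the exact Poisson interval. Cartpt stands at 152 CPM in Isl1CKO and 4.21 CPM in control, Penk is the only gene with its Isl1CKO point below the control point without overlap, and the Vip intervals overlap.

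Galanin and neuromedin B transcripts were few. Gal had 139 UMIs in Isl1CKO and 18 in control, at 1.54 CPM (1.30 to 1.82) in Isl1CKO and 0.550 CPM in control, a log2 ratio of 1.49 (0.77 to 2.28). Nmb had 205 UMIs in Isl1CKO and 22 in control, at 2.27 CPM in Isl1CKO and 0.672 CPM in control, with a log2 ratio of 1.76 (1.12 to 2.46). Both intervals lie above 0, but these levels are under the 5 CPM limit.

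Penk ran the other way. It had 25 UMIs in Isl1CKO and 27 in control in the smaller library, which gave 0.277 CPM (0.179 to 0.409) in Isl1CKO and 0.825 CPM (0.543 to 1.20) in control. The log2 ratio was -1.57 (-2.42 to -0.73). Vip was nearly undetected, with 8 UMIs in 4 Isl1CKO cells and 2 UMIs in 2 control cells. Its log2 ratio of 0.54 had an interval from -1.79 to 3.81, so no difference was detectable at this depth.

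Cartpt transcripts were spread over many Isl1CKO cells. At least 1 UMI was found in 2663 of 7522 Isl1CKO cells, a share of 35.4% (34.3 to 36.5, exact Clopper-Pearson), and in 73 of 3864 control cells, a share of 1.89% (1.48 to 2.37). At least 10 UMIs were found in 346 Isl1CKO cells and in 2 control cells, and the highest cell had 162 UMIs in Isl1CKO and 11 in control. The 1% of cells with most Cartpt UMIs held 27.6% of them in Isl1CKO and 75.4% in control. Without those cells in each library the log2 ratio was 6.74.

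Tac1 was found in a smaller share of cells. At least 1 UMI was present in 374 Isl1CKO cells (4.97%, 4.49 to 5.49) and in 20 control cells (0.518%, 0.316 to 0.798). At least 5 UMIs were found in 24 Isl1CKO cells and in 1 control cell. The 1% of cells with most Tac1 UMIs held 48.4% of the Isl1CKO total, and in control all 20 positive cells fall within that 1%.

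Since a share of cells with a UMI moves with depth, each cell was thinned to 3000 UMIs, leaving out 245 Isl1CKO and 115 control cells below that depth. Cartpt was then found in 20.1% of Isl1CKO and 0.747% of control cells, and Tac1 in 2.57% of Isl1CKO and 0.347% of control cells. The order of the libraries was the same as without thinning for both genes.

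Free RNA carried Cartpt as well. In Isl1CKO droplets with at most 100 UMIs, Cartpt was at 150.6 unscaled CPM (counts per 1000000 UMIs with no TMM scaling) beside 183 in the endocrine cells; in control it was at 2.64 unscaled CPM beside 3.51 in the cells. Tac1 was at 15.7 unscaled CPM in free RNA beside 9.40 in the cells of Isl1CKO, and at 1.18 beside 0.763 in control. Cells left out of the endocrine comparisons carried endocrine transcripts. In Isl1CKO, 52 of 182 acinar-like cells (28.6%, 22.1 to 35.7; median depth 7278.5 UMIs) had a Cartpt UMI, and those cells also had the endocrine granule transcript Chga at 57282 unscaled CPM, beside 58827 in free RNA and 57893 in endocrine cluster 3, so they are no cells without endocrine RNA. Among 17 Isl1CKO macrophage-like cells (median depth 4942 UMIs), 1 had a Cartpt UMI, a share of 5.88% (0.149 to 28.7), and none had a Tac1 UMI.

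Shares differed between the Isl1CKO endocrine clusters by more than their counting intervals. After thinning, Cartpt was found in 44.7% (41.3 to 48.2) of cells in cluster 5 and in 9.04% (7.60 to 10.6) of cells in cluster 0. Tac1 was found in 7.0% (5.54 to 8.69) of cells in cluster 4 and in 0.16% of cells in cluster 9. Free RNA held 10.4 Tac1 UMIs per 100 Cartpt UMIs in Isl1CKO. In the endocrine clusters of that library with at least 50 cells this ratio ran between 0.153 in cluster 9 and 83.1 in cluster 4. How much of any single level is free RNA was not tested.

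Cells were divided by count rules, without clustering. The insulin group held cells with Ins1 and Ins2 at 1% or more of their UMIs. Of the others, the Irx group had at least 1 UMI of the alpha cell factors Irx1 or Irx2 and none of Hhex, and the Hhex group had at least 1 UMI of Hhex, the delta cell factor, and none of Irx1 or Irx2. The remaining cells had both kinds or neither. Isl1CKO had 903 cells in the insulin group, 2835 in the Irx group, 349 in the Hhex group, 132 with both and 3303 with neither. Control had 275, 1730, 639, 50 and 1170 cells in these groups.

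Cartpt was higher in Isl1CKO in each of the 5 groups. In the insulin group it reached 241 CPM (233 to 249.5) in Isl1CKO and 21.8 CPM (16.7 to 28.1) in control, a log2 ratio of 3.46 (3.10 to 3.85), where 8.98% of features were called higher. In the Irx group it was 143 CPM (139 to 147) in Isl1CKO and 0.887 CPM (0.472 to 1.52) in control, a log2 ratio of 7.34 (6.56 to 8.25), where 7.26% were called higher; no member at 5 CPM was called lower in any group, beside 6.77% of features in the insulin group, 6.67% in the Irx group, 11.6% in the Hhex group, 9.75% in cells with both kinds and 7.92% in cells with neither. The interval of the Irx ratio lies above that of the insulin ratio. The control level was highest in the insulin group and lowest in the Irx group.

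In the Hhex group Cartpt was at 116 CPM in Isl1CKO and 3.56 CPM in control, a log2 ratio of 5.03 (4.37 to 5.77), where 10.4% of features were called higher. Cells with neither kind of factor had 139 CPM in Isl1CKO and 4.62 CPM in control, a log2 ratio of 4.91, with 9.1% of features called higher; without cluster 8, described further on, the ratio was 5.92 (5.30 to 6.61). The cells with both kinds had 67.9 CPM in Isl1CKO and 8.53 CPM in control, a log2 ratio of 2.99 (1.73 to 4.64), with 6.73% called higher; the control value there rests on 5 UMIs in 2 of 50 cells, and with doublets kept in both libraries the log2 ratio was 4.65. Within Isl1CKO, with the sexes pooled, the order of levels ran, high to low, insulin, Irx, neither, Hhex and both, and the intervals of the Irx and neither groups overlap while the other neighbours do not overlap. The order differed by sex. Male Isl1CKO cells had 210 CPM in the Irx group, 180 CPM in the insulin group and 156 CPM with neither factor. Female Isl1CKO cells had 308 CPM in the insulin group and 140 CPM with neither factor. They had 108 CPM in the Hhex group, 107 CPM in the Irx group and 47.4 CPM with both kinds.

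Tac1 had another distribution. In the Hhex group it reached 21.9 CPM (17.7 to 26.7) in Isl1CKO and 0.375 CPM (0.0454 to 1.36) in control, a log2 ratio of 5.87 (3.97 to 8.93) against 2 control UMIs. Cells with neither kind of factor had 13.5 CPM in Isl1CKO and 2.77 CPM in control, a log2 ratio of 2.29 (1.70 to 2.94). Of the 24 control UMIs there, 22 came from cluster 8; without that cluster Tac1 was at 13.2 CPM in Isl1CKO and 0.241 CPM in control, on 2 control UMIs, and the log2 ratio was 5.77 (3.91 to 8.82). The Irx group had 2.7 CPM in Isl1CKO and 0.273 CPM in control, a log2 ratio of 3.30 (1.90 to 5.21). Both values lie under the 5 CPM limit. In the insulin group there were 13 Tac1 UMIs in 903 Isl1CKO cells and none in 275 control cells, so no difference was detectable. Cells with both kinds of factor had 25 UMIs in Isl1CKO, in 5 of 132 cells, and none in 50 control cells. With 3 counts put in the control sum this was 2.49-fold. The lower limit of the log2 ratio was 0.91, and Tac1 was not called there.

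**Figure D2:**
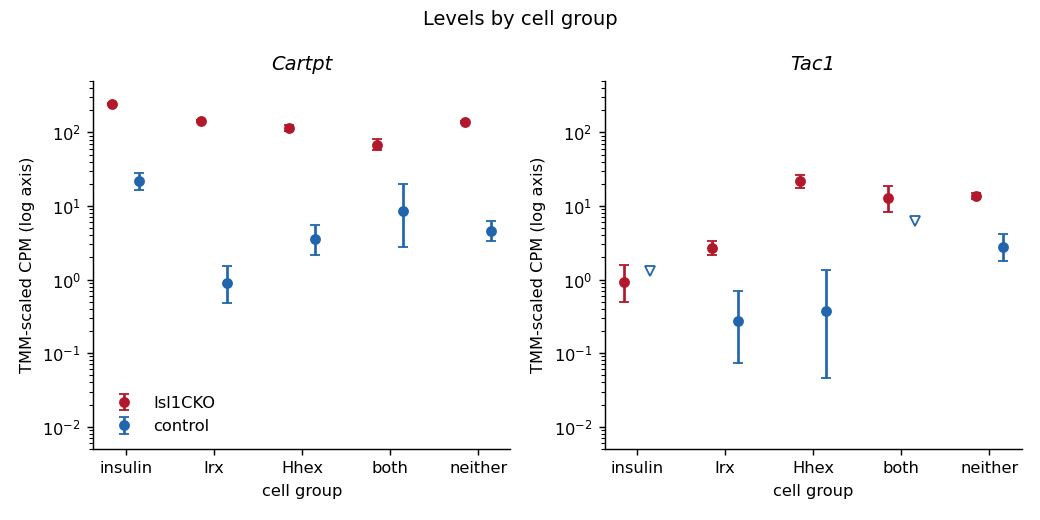
TMM-scaled CPM (log axis) of Cartpt and Tac1 in the 5 cell groups, Isl1CKO (red) left of control (blue); points are 1 library each with exact Poisson intervals, and open triangles mark the upper limit where no UMI was counted. With the sexes pooled, Cartpt is higher in Isl1CKO in every group and highest in the insulin group at 241 CPM, while Tac1 in Isl1CKO is highest in the Hhex group at 21.9 CPM and lowest in the insulin group at 0.935 CPM.

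Thinned shares of cells gave another order for Cartpt than its CPM. It was in 36.1% of insulin group cells in Isl1CKO and 2.29% in control, and in 21.6% of cells with neither factor in Isl1CKO and 1.18% in control. In the Hhex group it was in 16.7% in Isl1CKO and 0.63% in control, in the Irx group in 14.1% in Isl1CKO and 0.235% in control, and in cells with both kinds in 12.9% in Isl1CKO and 2.04% in control. With the sexes pooled, the insulin group was thus first by both measures within Isl1CKO, while the Irx group was above the Hhex group by CPM but not by share, and below the cells with neither factor by share, with no overlap of those intervals. By CPM the order of groups differed between the sexes, as given above. Tac1 was in 8.93% of Hhex group cells in Isl1CKO and 0.315% in control. Among insulin group cells Tac1 was in 0.566% in Isl1CKO and in 0 of 262 thinned cells in control.

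Along the insulin share of a cell, Cartpt had its highest CPM at 1 to 5% in both libraries, and Tac1 in Isl1CKO at the lowest range. Cartpt in Isl1CKO was at 147 unscaled CPM in cells with under 0.1% insulin transcripts, 254 at 0.1 to 0.5%, 272.5 at 0.5 to 1%, 316 at 1 to 5% and 226 at 5% or more. In control the same bins had 1.79, 3.14, 10.6, 30.7 and 9.76 unscaled CPM. The control value at 1 to 5% rests on 18 UMIs in 5 of 67 cells (interval 18.2 to 48.5, which overlaps that of the bin below it but not that of the bin above), and the share of control cells with a Cartpt UMI was 7.46% there and 10.1% in the bin above, with overlapping intervals. Tac1 in Isl1CKO was at 12.3 unscaled CPM under 0.1%, 6.95 at 0.1 to 0.5% and between 0.692 and 1.47 in the 3 bins above, under its 15.7 in free RNA. All 30 control Tac1 UMIs came from cells with under 0.5% insulin transcripts.

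**Figure D3:**
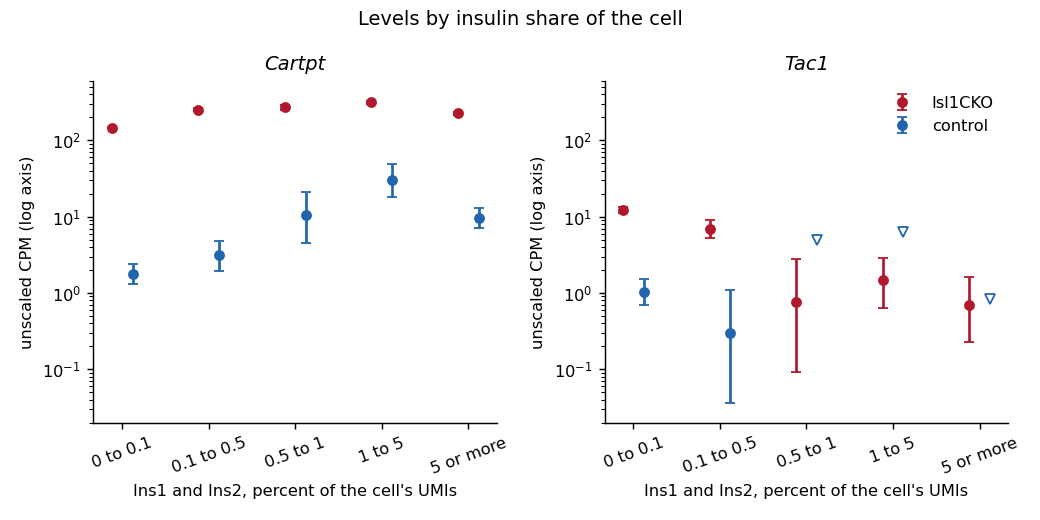
Cartpt and Tac1 unscaled CPM (log axis) in cells binned by the percent of their UMIs from Ins1 and Ins2, Isl1CKO (red) left of control (blue), with exact Poisson intervals; open triangles are upper limits where no UMI was counted. Cartpt is highest at 1 to 5% insulin transcripts, at 316 unscaled CPM in Isl1CKO and at 30.7 in control, there on 5 cells with a UMI, and Tac1 in Isl1CKO is highest under 0.1%, at 12.3 unscaled CPM.

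Clustering both libraries together gave 18 clusters, most of them almost wholly from 1 library, so that a cluster may be a library as much as a cell type. The clustering used 2000 variable genes, and the 6 members were not kept out of that choice, so cluster values are given as descriptions. Over the Isl1CKO endocrine clusters of at least 50 cells, Cartpt ran between 374 unscaled CPM in cluster 5, whose leading genes were Dlk1 and Tmem252 and which also carried Ins1, Ins2 and Iapp, and 45.7 in cluster 4. Next came the beta-like cluster 9 at 276.5, cluster 7 at 228 and cluster 3 at 171. The alpha-like cluster 6 had 133 and cluster 0, with Gcg, Irx1 and Irx2 but no name, had 82.7. Each of these Isl1CKO clusters was above each control endocrine cluster of at least 50 cells for Cartpt, except that the control part of cluster 8, at 54.9, exceeded cluster 4. Clusters 0, 4 and 6 and the Isl1CKO part of cluster 8, at 75.9, lay under the 150.6 of free RNA in Isl1CKO. The part of free RNA in their levels was not tested. The low-UMI cluster 10, left out of the endocrine cells, had 33.1 in Isl1CKO and no Cartpt UMI in control.

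Tac1 in Isl1CKO was concentrated in cluster 4, led by Pyy and by Tac1 itself and with Hhex among its top genes. There it was at 38.0 unscaled CPM (33.7 to 42.7), and 15.1% of the endocrine cells held 39.7% of the Tac1 UMIs. Cluster 8, led by the endocrine precursor factor Neurog3, followed at 20.9. Clusters 3 and 5 had 12.2 and 11.1, and the beta-like cluster 9 had 0.423, all under the 15.7 of free RNA in Isl1CKO. The clusters split by sex: of sexed cells, 99.7% in cluster 4 and 99.5% in cluster 5 were female, while 1.94% in the Isl1CKO part of cluster 8 and 1.25% in cluster 9 were. The part of sex in these differences was not tested, since these clusters held at most 9 cells of the other sex.

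Markers of other Tac1 cell types were low in cluster 4. Of 8 peripheral neuron markers 6 were at 0 there, among them Chat, Prph and Stmn2, and their sum of 11.9 unscaled CPM was almost all Ret. The 6 enteroendocrine markers summed to 3.80 unscaled CPM in cluster 4, with 2 at 0, and to 181 over all Isl1CKO endocrine cells, against 7.15 over control. A cluster of 7 Isl1CKO cells with Gip, Cck, Tph1 and Sct, called enteroendocrine-like, had Cartpt at 434 and Tac1 at 141 unscaled CPM, on 37 and 12 UMIs. Without those 7 cells the log2 ratios were 5.18 for Cartpt and 3.07 for Tac1.

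**Figure D4:**
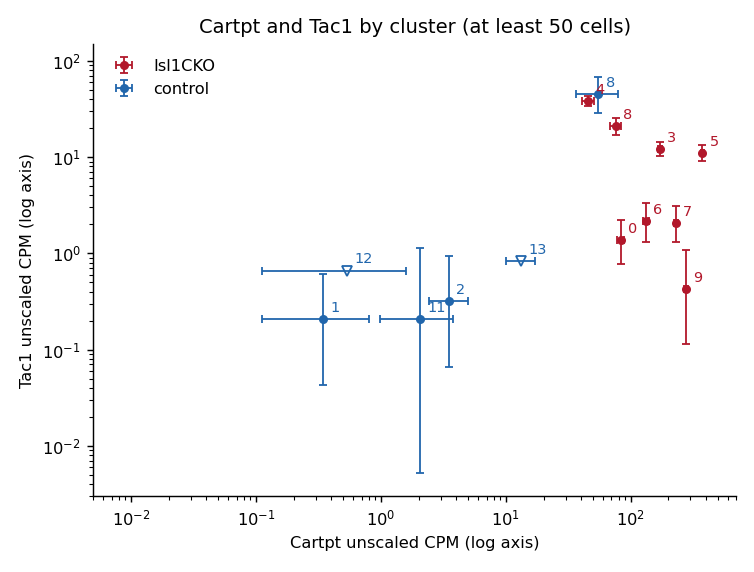
Cartpt (horizontal) against Tac1 (vertical) unscaled CPM, both log axes, for each cluster with at least 50 cells in a library; red is Isl1CKO and blue control, numbers name the clusters, bars are exact Poisson intervals and open triangles upper limits where no Tac1 UMI was counted. Cluster 4 of Isl1CKO lies high in Tac1 (38.0) and low in Cartpt (45.7) for that library, cluster 9 the reverse (0.423 and 276.5), and the control part of cluster 8 lies among the Isl1CKO clusters.

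In control, cluster 8 held most of the Tac1. Its 92 control cells were 2.38% of the control endocrine cells and held 23 of the 30 Tac1 UMIs, in 14 cells, at 45.1 unscaled CPM (28.6 to 67.7); the other control cells had 0.180. They also held 20.3% of the control Cartpt UMIs, at 54.9 unscaled CPM beside 2.83 in the other control cells, and 44.4% of the Penk UMIs, at 23.5 beside 0.387. The Penk value rests on 12 UMIs in 5 cells. In these 92 cells Isl1 was at 66.7 unscaled CPM, beside 303 over all control endocrine cells and 90.1 in the beta-like control cluster 13. A low Isl1 level was thus not particular to these 92 cells. Chga was at 60913 unscaled CPM in them, beside 8099 in the largest control cluster. Neurog3 was at 106 unscaled CPM in them and at 92.7 in the delta-like control cluster 2, where Tac1 was at 0.319. The Isl1CKO part of cluster 8, 680 cells, had Tac1 at 20.9, Cartpt at 75.9 and Penk at 1.81 unscaled CPM, with Isl1 at 375 and Neurog3 at 55.4. These 92 cells had a median of 5634 UMIs, and their neuron markers Ret and Stmn2 were at 51.0 and 5.88 unscaled CPM with the other 6 at 0.

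Tac1 in Isl1CKO cells also differed with their Neurog3 UMIs. It was at 8.82 unscaled CPM in cells with no Neurog3 UMI, 17.9 with 1 and 18.8 with 2 or more. The intervals of the last 2 include the 15.7 of free RNA. Cartpt was at 187, 112 and 113 in the same order, and female cells were 77.8%, 60.6% and 40% of sexed cells. Clusters 4 and 8, high in Tac1, had Neurog3 at 20.6 and 55.4 unscaled CPM in Isl1CKO. The parts of cluster, sex and free RNA in this order were not tested. In control cells Tac1 was at 0.790, 0.800 and 0.377 unscaled CPM, on 26, 3 and 1 UMIs, too few to show or exclude such an order, and Cartpt was at 3.55, 2.93 and 3.77.

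Among the low genes, 76 of the 139 Gal UMIs of Isl1CKO were in the Irx group. Gal was at 2.28 CPM (1.79 to 2.85) in the Irx group of Isl1CKO and 0.819 CPM (0.423 to 1.43) in that of control, a log2 ratio of 1.48 (0.59 to 2.49). Outside the endocrine cells, 17 of 182 Isl1CKO acinar-like cells had a Gal UMI, at 20.6 unscaled CPM beside 1.85 in the endocrine cells; 1 of 10 control acinar-like cells had one. Nmb ran between 1.27 unscaled CPM in cluster 9 and 3.74 in cluster 7 among the Isl1CKO clusters of at least 50 cells, and 3 of its 202 positive cells had more than 1 UMI. Penk in Isl1CKO was at 0 UMIs in clusters 6 and 7 and highest in clusters 8 and 9, at 1.81 and 0.635 unscaled CPM. Without the 5 CPM limit, Penk was called lower in 2 of the 5 cell groups: the insulin group, with 4 UMIs in Isl1CKO and 5 in control, and the cells with neither factor, with 16 in Isl1CKO and 18 in control. Of those, 9 in Isl1CKO and 12 in control came from cluster 8, and without it the log2 ratio of Penk in the cells with neither factor was -1.64 (-3.44 to 0.20), no longer a call. With no limit on low values, the share of features called lower was 5.56% in the insulin group, 7.67% in the cells with neither factor, 8.1% in the Irx group, 8.3% in the Hhex group and 6.55% in the cells with both.

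Cartpt and Tac1 were higher in Isl1CKO within each sex as well. In female cells Cartpt was at 145 CPM in Isl1CKO and 3.44 CPM in control, a log2 ratio of 5.40 (4.85 to 6.01), where 10.7% of features were called higher. In male cells it was at 178 CPM in Isl1CKO and 3.84 CPM in control, a log2 ratio of 5.53 (5.15 to 5.94), where 4.72% were called higher. No member at 5 CPM was called lower within a sex, beside 9.38% of features in female and 4.61% in male cells. Tac1 was at 10.1 CPM in Isl1CKO and 1.59 CPM in control among female cells, and at 4.25 CPM in Isl1CKO and 0.412 CPM in control among male cells, with log2 ratios of 2.67 (1.86 to 3.64) and 3.37 (2.19 to 4.85). The 2 sexes' intervals overlap for both genes. The male Tac1 values lie under the 5 CPM limit in both libraries. Among male cells, cluster 8 held 79 of the 99 Tac1 UMIs of Isl1CKO and 5 of the 6 of control; without it male Tac1 was at 1.05 CPM in Isl1CKO and 0.0693 CPM in control, on 20 UMIs in Isl1CKO and 1 in control, a log2 ratio of 3.91 (1.27 to 9.29). In female cells the same removal left Tac1 at 10.1 CPM in Isl1CKO and 0.535 CPM in control, a log2 ratio of 4.24 (2.88 to 6.12). Gal, under the 5 CPM limit, had a log2 ratio of 1.68 (0.42 to 3.33) in female cells and 0.82 (-0.59 to 2.46) in male cells, intervals that overlap. Nmb had 1.87 and 1.82. Penk had -1.22 in female and -0.88 in male cells with intervals that include 0.

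Cartpt and Tac1 were seldom in the same cell. After thinning, 187 Isl1CKO cells had a Tac1 UMI, and 20 of them (10.7%, 6.66 to 16) also had a Cartpt UMI, beside 20.1% of all cells. Of 1462 cells with a Cartpt UMI, 1.37% had a Tac1 UMI, beside 2.57% of all. Cluster 4 held 75 of the 187 cells with Tac1, and cluster 8 held 33. Cartpt was found in 10.4% of all thinned cells of cluster 4 and in 13.5% of those of cluster 8. Clusters 3 and 5 held 39 and 22 of the cells with Tac1, and Cartpt was in 24.4% and 44.7% of their thinned cells. The part of cluster in the 10.7% was not tested. Among the 72 cells with Nmb and the 44 with Gal, 20.8% and 25.0% had Cartpt, with intervals that include the 20.1%. None of the 13 control cells with Tac1 had Cartpt, a count too low to read.

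The genes whose levels followed Cartpt most closely were sought over 15 sums of cells by library, cell group and sex, 8 from Isl1CKO and 7 from control, among 7372 genes. Within a library these sums share its depth and free RNA, so the correlations are descriptions. The r over all sums takes in the difference between the libraries, so r is also given within Isl1CKO and within control, in that order. On log2(CPM + 1) the genes included Sepp1 (selenoprotein P; Pearson r 0.97 over all sums, then 0.89 and 0.88). Ctsd (the lysosomal protease cathepsin D) had 0.96, then 0.76 and 0.67. The mitochondrial gene mt-Co1 had 0.96, then 0.75 and 0.70. For Tac1 the genes were Gpc6 (glypican 6; 0.89, then 0.96 and 0.59) and Ppp2r2c (0.86, then 0.94 and 0.31). The others were Zbtb33 (0.84, then 0.89 and 0.50), Exoc1 (0.83, then 0.79 and 0.61) and Slk (0.82, then 0.67 and 0.78). Gpc6 was at 20.2 CPM in Isl1CKO and 2.44 CPM in control, and Sepp1 at 1029 CPM in Isl1CKO and 368 CPM in control.

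Of 54 other precursors of neuropeptides, gut and islet peptides and granins, 20 reached 5 CPM. Of these, 9 were called higher and 4 lower in Isl1CKO, beside 6.9% and 6.1% of all measured features. The log2 ratios of the 20 had a median of 0.89. Over all 10324 measured features the median was 0.06. The higher ones included gut peptides: Gip (incretin; log2 ratio 8.47), Cck (cholecystokinin; 6.08), Ghrl (ghrelin; 5.87), Sct (secretin; 3.75) and Gast (gastrin; 1.26). Pnoc, the nociceptin precursor of the opioid family, was at 40.8 CPM in Isl1CKO and 14.6 CPM in control, a log2 ratio of 1.48. The lower ones were Sst (-9.09), Pyy (-8.91), the beta cell peptide gene Ucn3 (-5.76) and Scg2 (-2.86). Chga, Chgb and Vgf were also among the 9 higher ones. Gip, Cck, Ghrl and Vgf passed the 5 CPM limit only through Isl1CKO, where they were high, and Ucn3 only through control. Those calls were thus largely fixed by the limit. In the lists below the same goes for Slc18a1, which passed only through Isl1CKO, and for Vipr1 and Qpct, which passed only through control. Pdyn, the dynorphin precursor, stayed under 5 CPM, with 9 UMIs in Isl1CKO and 91 in control.

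Receptors were scarce. Of 16 receptor genes listed for these peptides 15 were in the table and 2 reached 5 CPM. Galr1, a galanin receptor, was at 12.1 CPM in Isl1CKO and 5.71 CPM in control, a log2 ratio of 1.08 (0.86 to 1.32), a call that was lost when hormone genes were left out of the totals. Vipr1, a receptor for Vip, was at 3.97 CPM in Isl1CKO and 12.1 CPM in control, a log2 ratio of -1.61 (-1.82 to -1.40). Tacr3, the tachykinin receptor for neurokinin B, had 1 UMI in Isl1CKO and 33 in control. Tacr1, the substance P receptor, had 1 UMI in Isl1CKO and none in control.

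Of 10 measured processing genes 1 was called higher and 2 lower, where 6.9% of all features were called higher and 6.1% lower; the median over the 10 was 0.24 on the log2 scale. Pcsk2 (0.32), Cpe (0.42) and Pam (0.16) were not called; the sign of Pam was reversed without hormone genes in the totals. The convertase gene Pcsk1 was at 24.9 CPM in Isl1CKO and 53.4 CPM in control, a log2 ratio of -1.10 (-1.19 to -1.01), and Qpct, which forms N-terminal pyroglutamate, had a ratio of -1.46; neither was called without TMM scaling. Cpd, carboxypeptidase D, was higher at 1.47. Among 16 granule and release genes 3 were higher, Chga (2.29), Chgb (2.20) and Vgf (3.58), and 3 lower, Scg2, Cadps (-1.72) and Rab3a (-1.20), a call that was lost without TMM scaling. Chga, Chgb, Vgf and Scg2 are also on the list of other precursors, so their calls count in both lists.

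Factors of enteroendocrine and precursor cells went both ways, 3 higher and 2 lower of 13 measured, beside 6.9% and 6.1% of all features. Slc18a1, a vesicular monoamine transporter, was at 12.3 CPM in Isl1CKO and 3.05 CPM in control (log2 ratio 2.01), the serotonin neuron factor Fev at 184 CPM in Isl1CKO and 63.1 CPM in control (1.54), and Sox4 at 227 CPM in Isl1CKO and 98.9 CPM in control (1.20). The Sox4 call was lost without hormone genes in the totals. Neurog3, a leading gene of cluster 8 within Isl1CKO, was lower over all endocrine cells, at 7.48 CPM in Isl1CKO and 33.3 CPM in control (-2.15).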

How the data were processed

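Deposited values are whole-number UMI counts, unfiltered, 1 matrix per library, per the file headers and values; the submitters' processing notes name GRCm38.p6, Seurat 4.3.0.1 and STARsolo (STAR 2.7.3a). The roles of those tools, the cell filter and the strand setting are not given in the sources used here. Barcodes were kept from 1000 UMIs and 500 genes up, with a mitochondrial share of at most 15%. Scrublet (scanpy 1.11.5) failed in Isl1CKO, where it marked 0 of 8231 cells; in control it marked 249 of 4219 control cells (5.90%), and these were removed. Leiden clustering (leidenalg 0.10.2; 2000 variable genes, 30 components, 15 neighbours, resolution 1) was run on both libraries without integration. Left out were 478 Isl1CKO and 53 control cells of a low-UMI cluster and 231 and 53 cells of acinar-like, macrophage-like and stromal or endothelial clusters. UMIs were summed per library and scaled by TMM (edgeR 4.0.16, R 4.3.3; factors 1.20 in Isl1CKO and 0.833 in control), with exact Poisson intervals for CPM, exact conditional ones for ratios and Clopper-Pearson ones for shares. Cells are not replicates and no test between genotypes was made. The ratio intervals were checked on counts drawn from Poisson distributions with known folds. Such draws hold no spread between cells or animals, so the check concerns counting error only. Over all endocrine cells, unscaled CPM moved every log2 ratio by 0.53 relative to TMM. There DESeq2 1.42.0 size factors moved it by -0.02 and totals without hormone genes by -0.21. Cell groups had their own factors and shifts. With unscaled CPM the Cartpt log2 ratio was 4.44 in place of 3.46 in the insulin group, and 5.41 in place of 5.03 in the Hhex group. The genes named are the 6 members, list genes that were called or that receive or process these peptides, and the 5 genes most correlated with Cartpt and with Tac1; a few of these are not reported here. Members, lists and cell groups were chosen with earlier results of these data known.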

Additional observations from a re-analysis of the deposited data

Results flagged for a closer look

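Cartpt appeared in cells that stand outside the endocrine comparisons, above the level of the same cells in control. In Isl1CKO acinar-like cells it was at 173 unscaled CPM (152.9 to 194.3; 277 UMIs in 52 of 182 cells), where 10 control acinar-like cells had none, with an upper limit of 38.5 unscaled CPM. In Isl1CKO cells with stromal and endothelial markers it was at 232 unscaled CPM (174 to 305), on 52 UMIs in 4 of 32 cells, where control had 4.59 unscaled CPM, on 2 UMIs in 1 of 39 cells. The parts of free RNA and of mixed droplets in these values were not tested.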

How the results depend on the processing

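Over endocrine cells the log2 ratio of Cartpt was 5.70 with unscaled CPM, 5.53 in male cells, 5.53 without cluster 8 and 6.74 without the 1% of cells with most Cartpt UMIs; the other 9 of 13 alternatives lay within its counting interval, and all 13 between 4.96 and 6.74. The log2 ratio of Tac1 was 5.04 without cluster 8, and its 12 alternatives lay between 2.67 and 5.04. The removals of clusters 8 and 17 were chosen after seeing the data. The share of cells with a Cartpt UMI was 20.1%, 15.5% and 21.4% in Isl1CKO, and 0.747%, 0.526% and 0.518% in control, with cells thinned to 3000 UMIs, thinned to 2000 UMIs and counted from 2 UMIs. For Tac1 these were 2.57%, 1.77% and 1.86% in Isl1CKO, and in control 0.184% at 2000 UMIs and 0.129% from 2 UMIs. With no filter on low values 4 members were called higher. By cell group, 88 of 94 alternative values for Cartpt and Tac1 lay within their counting intervals and 0 changed sign; for the 5 gene lists, counts of higher genes with unscaled CPM were 11, 1, 3, 6 and 6 in place of 9, 1, 1, 3 and 3, where 2285 of all features were higher and 304 lower. No paired analysis was possible because each genotype is 1 library, and no replicate could be left out. Gal, Penk, Nmb and Vip rest on 2 to 205 UMIs per library, which limits what can be said of them.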
